A study of Mus musculus with 8 samples.

Results

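The Period, cryptochrome and casein kinase genes of the circadian clock were followed as 8 genes, namely Per1, Per2, Per3, Cry1, Cry2, Ciart, Csnk1d and Csnk1e, out of 19937 genes tested. They were chosen by name: a probe set belonged to a gene where the array's annotation gave that symbol or an older synonym of it. Of several probe sets for a gene, the one with the highest mean signal was used. All 8 genes were found, 7 of them with 1 probe set and Ciart with 2.

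The measurements were made on whole-transcript gene arrays hybridised with RNA of primary hepatocytes, the parenchymal cells of the liver, from male BALB/c mice. There were 4 groups of 2 arrays. Control was HO1+/+ with a scrambled short hairpin RNA (shRNA), HO1 knockout was HO1-/- with the same scrambled shRNA, HO2 knockdown was HO1+/+ with an shRNA against HO2, and combined was HO1-/- with the shRNA against HO2. HO1 and HO2 are the heme oxygenases, enzymes that degrade heme and release carbon monoxide. Cells of all 4 groups carried a lentivirus, were selected in puromycin for 3 days, received 1 µM dexamethasone for 30 min and were harvested 28 h later, so the groups share that treatment and the arrays hold a single time point. Levels at that time can be compared, whereas rhythm, phase and amplitude cannot. HO2 was targeted with 1 hairpin. Replicates are called biological in the labels, with no word on separate animals or cultures, and p-values here reflect only the spread of these arrays, which may be technical.

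PER and CRY proteins are the repressors of the mammalian clock. The CLOCK and BMAL1 activators bind E-boxes and drive transcription of the Per and Cry genes, whose products enter the nucleus together and shut that activity down until they are degraded. CIART, also called CHRONO, is a further repressor of CLOCK and BMAL1. Casein kinase 1 delta and epsilon, encoded by Csnk1d and Csnk1e, bind and phosphorylate PER proteins and so set how long the repressors last. In liver, glucocorticoids and cAMP induce Per1 directly, which is why a dexamethasone pulse is used to align the clocks of cultured cells.

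Values below are log2 signal intensities per probe set, given as the value in replicate 1 and then replicate 2. Differences are log2 changes from a limma fit of the 4 group means over all 8 arrays, with the standard error (SE). A gene was counted as risen or fallen when its Benjamini-Hochberg adjusted p over all genes tested was under 0.05. Each probe set has its own scale, so no gene's level is set against another's.

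Promoters are shown first because CLOCK and BMAL1 drive the Per and Cry genes through E-boxes, and glucocorticoids and cAMP induce Per1. RefSeq windows of 250 bases before the transcription start (GRCm38.p6) were held for 6 of the 8 genes. The 5 windows printed here carry the letters of at least 1 clock element, in capitals. They are Per1 at chr11:69098699-69098948 on the plus strand, Per3 at chr4:151044666-151044915, Cry1 at chr10:85185055-85185304, Cry2 at chr2:92434070-92434319 and Ciart at chr3:95882229-95882478, the last 4 on the minus strand.
Per1: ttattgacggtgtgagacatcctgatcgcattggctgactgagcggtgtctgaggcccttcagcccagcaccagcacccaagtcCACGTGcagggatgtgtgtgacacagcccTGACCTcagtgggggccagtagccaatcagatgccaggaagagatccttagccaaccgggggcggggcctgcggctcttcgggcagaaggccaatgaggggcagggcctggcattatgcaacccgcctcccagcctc
Per3: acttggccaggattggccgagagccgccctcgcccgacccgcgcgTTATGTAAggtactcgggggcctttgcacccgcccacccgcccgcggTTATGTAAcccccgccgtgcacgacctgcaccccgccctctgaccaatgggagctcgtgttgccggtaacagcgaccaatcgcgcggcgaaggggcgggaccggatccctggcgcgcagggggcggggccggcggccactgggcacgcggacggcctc
Cry1: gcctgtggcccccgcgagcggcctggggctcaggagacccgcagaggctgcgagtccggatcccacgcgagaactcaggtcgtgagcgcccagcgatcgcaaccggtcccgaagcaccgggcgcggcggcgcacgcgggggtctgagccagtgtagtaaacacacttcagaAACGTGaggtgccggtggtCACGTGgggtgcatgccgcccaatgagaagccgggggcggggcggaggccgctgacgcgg
Cry2: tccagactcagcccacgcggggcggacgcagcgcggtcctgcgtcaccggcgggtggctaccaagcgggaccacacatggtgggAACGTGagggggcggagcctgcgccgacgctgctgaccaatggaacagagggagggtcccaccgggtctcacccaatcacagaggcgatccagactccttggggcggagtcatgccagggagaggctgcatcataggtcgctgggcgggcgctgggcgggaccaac
Ciart: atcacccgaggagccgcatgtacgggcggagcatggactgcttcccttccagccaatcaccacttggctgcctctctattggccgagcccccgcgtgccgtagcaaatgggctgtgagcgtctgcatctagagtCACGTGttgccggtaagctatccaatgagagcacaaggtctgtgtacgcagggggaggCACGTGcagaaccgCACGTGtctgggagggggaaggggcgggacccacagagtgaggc

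The windows differ in the elements they hold. Searched on both strands were the E-box CACGTG, its variant CACGTT, which reads AACGTG on the other strand, the D-boxes TTATGTAA and TTACGTAA, the cAMP response element TGACGTCA, AGGTCA, the core of the element read by REV-ERB and ROR, and AGAACA, one arm of the glucocorticoid receptor site. None of these letters overlap each other in the printed windows. Ciart held 3 E-boxes, which begin 116, 58 and 44 bases before the start, whereas Per1 and Cry1 held 1 each, at 166 and 60 bases. An E-box was present in 6.02% of all 32851 windows. The variant E-box was found in Cry1 at 79 and in Cry2 at 166 bases before the start, and in 3.85% of all windows. Per3 held the D-box TTATGTAA at 205 and at 158 bases, an element found in 0.819% of windows. Per1 alone of the 5 held the letters TGACCT, the reverse of AGGTCA, at 137 bases, which occur on 1 strand or the other in 14.0% of windows. Neither TTACGTAA (0.113% of windows) nor the cAMP response element (1.55%) was found in any of the 10 windows of the 6 genes. AGAACA or its reverse TGTTCT, present in 16.1% of all windows, was found among them only before Csnk1e. A second Per1 window, at chr11:69099902-69100151, held none of the searched letters. These matches describe 250 bases of sequence each and say nothing of binding.

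**Figure D1:**
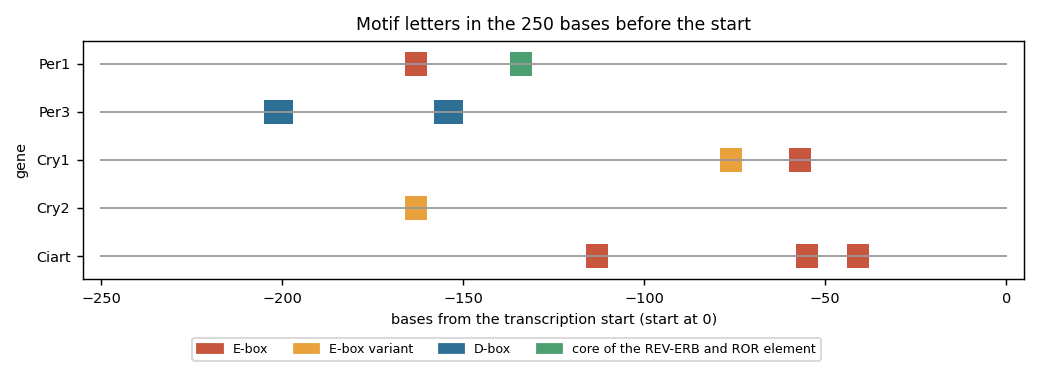
Positions of the searched motif letters in the printed promoter windows of Per1, Per3, Cry1, Cry2 and Ciart; the x axis gives bases from the transcription start, at 0, and colours mark the motif. Ciart holds 3 E-boxes and Per3 holds 2 D-boxes.

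The hairpin lowered its target. Mean log2 signal of Hmox2, the gene for HO2, was 11.49 in control and 11.60 in HO1 knockout, against 8.35 in HO2 knockdown and 9.29 in combined. Hmox1, the gene for HO1, was not lower in arrays labelled HO1 knockout: its means were 11.43 in control, 11.97 in HO1 knockout, 11.55 in HO2 knockdown and 12.44 in combined. A whole-transcript probe set sums signal along the gene and no source used here gives the deleted exons, so this signal checks nothing about the deletion, and directions for HO1 rest on the labels. The defining markers of hepatocytes were present in every group, and their summed linear signal rose with the hairpin. Over 14 markers it ran from 56560 to 57230 in control and 72340 to 72820 in HO1 knockout. It ran from 106900 to 110900 in HO2 knockdown and 116300 to 119200 in combined. With HO2 shRNA in HO1+/+ cells 13 of the 14 rose, where 16.5% of all genes were higher and 16.7% lower. Over 12 cell division genes the sum went the other way with the hairpin, from 17450 to 17830 in control to between 8069 and 8096 in HO2 knockdown, and from 18120 to 18420 in HO1 knockout to between 11580 and 11640 in combined. The sum over 15 macrophage markers followed the genotype, at 7563 to 7914 in control and 6608 to 6892 in HO2 knockdown against 35970 to 36340 in HO1 knockout and 34910 to 36860 in combined. Of the 15, 11 rose and 1 fell in HO1 knockout against control, where 5.62% of all genes were higher and 7.2% lower. All 12 cell division genes fell with the hairpin in both genotypes, where 16.7% of all genes were lower in HO1+/+ and 12.8% in HO1-/- cells. The part of these shifts in the differences below was not tested. In such bulk RNA, fewer cells of a type and less RNA per cell cannot be told apart, nor can hepatocyte preparation and genotype.

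**Figure D2:**
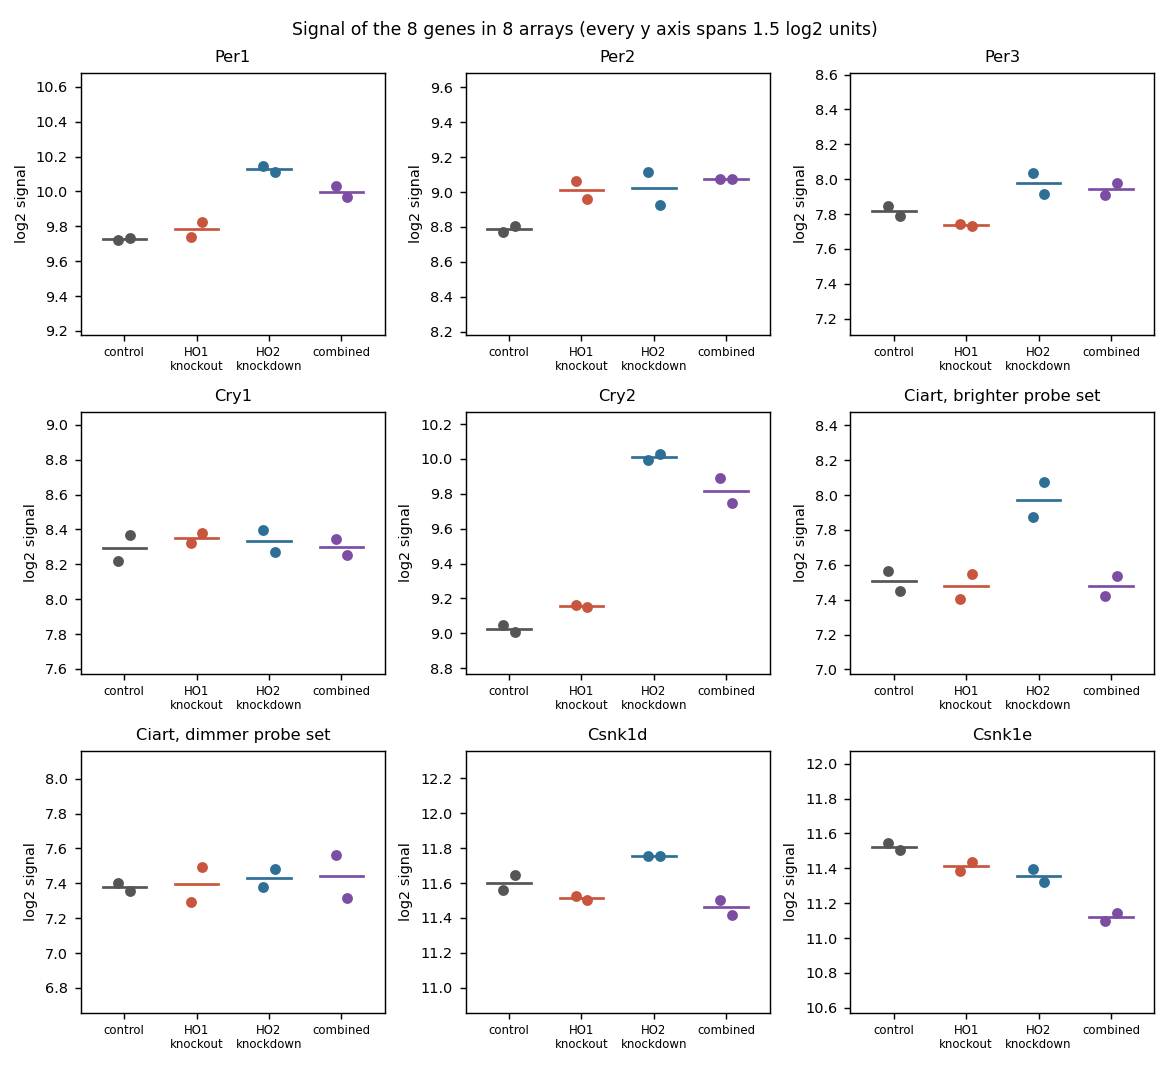
Log2 signal (y axis, each spanning 1.5 log2 units) of the 8 genes, with both probe sets of Ciart, in the 4 groups; points are arrays and lines are group means of 2 arrays. Cry2 and Per1 stand higher in all 4 arrays with HO2 shRNA than in all 4 without it, while Cry1 overlaps between all groups.

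HO2 shRNA in HO1+/+ cells raised 5 of the 8 genes and lowered 1. Cry2 rose most, to 1.98 times its control signal, followed by Ciart, Per1, Per2 and Csnk1d, and Csnk1e fell. The Ciart call rests on its brighter probe set. Around it, 19 of the 20 nearest-numbered probe sets carry genes of chromosome 10 and 0 of chromosome 3, where Ciart lies. The dimmer Ciart probe set, with neighbours on chromosome 3, showed 0.05 (limma adjusted p = 0.752). Per3 and Cry1 did not pass the test. Among all genes tested, 16.5% were higher and 16.7% lower in this comparison. The median log2 change was 0.20 over the 8 genes and -0.07 over all genes. Centring each array on its median moved the share of calls that were higher from 49.7% to 62.9%.

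In HO1-/- cells the same hairpin raised 2 of the 8 genes, Per1 and Cry2, and lowered Csnk1e. There the median over the 8 genes was 0.03, beside 0.01 over all genes, of which 10.2% were higher and 12.8% lower. HO1 genotype with the scrambled hairpin gave no call among the 8 genes, with 5.62% of all genes higher and 7.2% lower. Per2 and Csnk1e had an unadjusted limma p of 0.0154 and 0.038 there. The share of all genes with such an unadjusted p is not given here, so these are not counted. Under HO2 shRNA Cry2, Ciart (on its brighter probe set only), Csnk1d and Csnk1e were lower in HO1-/- than in HO1+/+ cells. These were 4 of the 8 genes, and 0 were higher, where 13% of all genes were higher and 21% lower. Centring moved the share of higher calls there from 38.2% to 24.1%. Hmox2 itself was 0.94 higher in combined than in HO2 knockdown, and the part of this weaker knockdown in that comparison was not tested. Both perturbations together, against control, raised Per1, Per2 and Cry2 and lowered Csnk1d and Csnk1e, with 11.6% of all genes higher and 18.3% lower. These comparisons share arrays, so their values for a gene are not independent of each other.

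**Figure D3:**
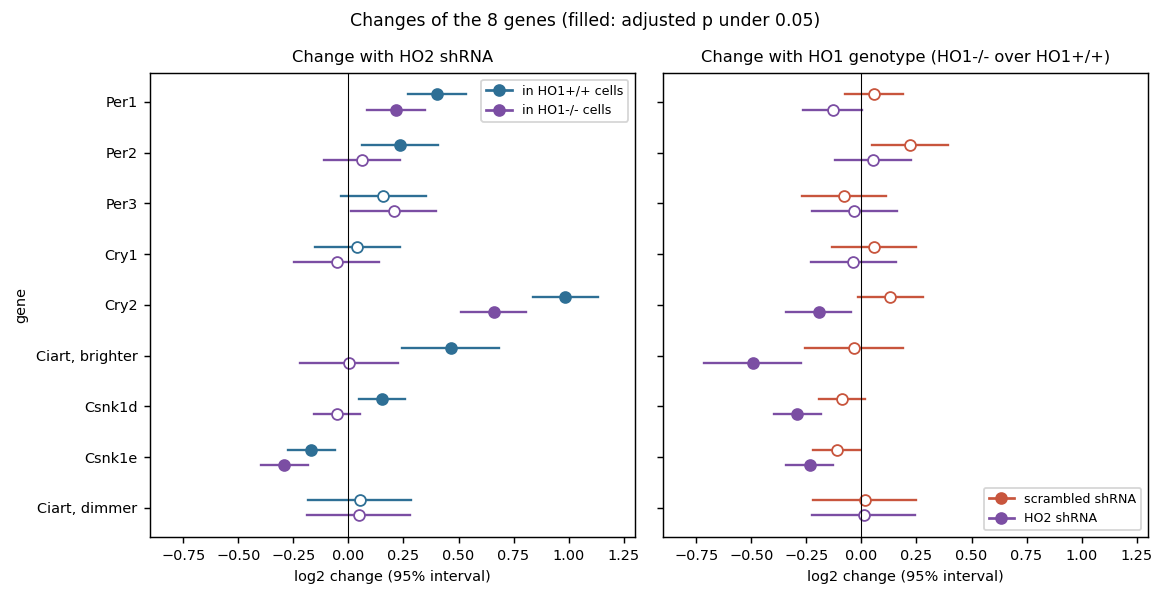
Log2 change (x axis, with its 95% interval) of the 8 genes and of the dimmer Ciart probe set in each comparison; filled points have an adjusted p under 0.05. Cry2 is farthest to the right in both comparisons of HO2 shRNA with the scrambled hairpin, at 0.98 and 0.66.

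Per1 encodes the Period protein most directly induced by glucocorticoid and cAMP signals. Its probe set (10377439, gene at chr11:69095108-69109965) read 9.72 and 9.73 in control, 9.74 and 9.83 in HO1 knockout, 10.15 and 10.11 in HO2 knockdown, and 10.03 and 9.97 in combined. All 4 arrays with HO2 shRNA lay above all 4 without it. Per1 rose by 0.40 with the hairpin in HO1+/+ cells (SE 0.062, limma adjusted p = 0.000106) and by 0.22 in HO1-/- cells (SE 0.062, adjusted p = 0.0191). The first call was kept under every alternative run, whereas the second was lost without HO1 knockout replicate 1 (0.17, adjusted p = 0.17), combined replicate 1 (0.18, adjusted p = 0.162) or combined replicate 2 (0.25, adjusted p = 0.0501). Between the genotypes Per1 stood at 0.06 with the scrambled hairpin (SE 0.062, adjusted p = 0.679) and at -0.13 with HO2 shRNA (SE 0.062, adjusted p = 0.119). The latter passed after centring each array on its median (-0.20, adjusted p = 0.0274). In the order of means, control and HO1 knockout lay 0.06 apart, less than the largest group SD of 0.061, and combined and HO2 knockdown lay farther apart, by 0.13.

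Per2, the Period gene whose loss disturbs the clock most in mice, differed less between groups. Its signal (probe set 10356601, gene at chr1:91415977-91459351) was 8.77 and 8.81 in control, the lowest of the 8 arrays, and 9.06 and 8.96 in HO1 knockout. It was 9.12 and 8.93 in HO2 knockdown and 9.07 and 9.07 in combined. The 3 perturbed groups overlapped or nearly touched, and all 6 of their arrays lay above both control arrays. Per2 rose by 0.23 in HO2 knockdown (SE 0.081, limma adjusted p = 0.0369) and by 0.28 in combined (SE 0.081, adjusted p = 0.0132), each against control. In HO1 knockout the difference from control was 0.22 with a 95% interval from 0.05 to 0.39, and it did not pass (adjusted p = 0.0939). After a second quantile normalization it did, at 0.23 (adjusted p = 0.0472). The call in HO2 knockdown was lost with array weights (adjusted p = 0.0699), in a fit to the 4 arrays of those groups (adjusted p = 0.0816) and without any 1 of 4 arrays. The adjusted p was then 0.109 without control replicate 1, 0.345 without HO2 knockdown replicate 1, where the change was 0.14, and 0.0572 and 0.0573 without combined replicate 1 and 2. The call in combined against control was lost without combined replicate 1 or 2 (adjusted p = 0.0712 and 0.0782). With the hairpin in HO1-/- cells the value was 0.06 (SE 0.081, adjusted p = 0.681).

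Per3, which is dispensable for rhythm itself, passed the test in no comparison. It read 7.85 and 7.79 in control, 7.74 and 7.73 in HO1 knockout, 8.04 and 7.92 in HO2 knockdown, and 7.91 and 7.98 in combined (probe set 10518781, gene at chr4:150997018-151044707). The 4 arrays with HO2 shRNA were again the 4 highest. Against its own scrambled group Per3 differed by 0.16 in HO1+/+ cells (95% interval -0.03 to 0.35, limma adjusted p = 0.193) and by 0.21 in HO1-/- cells (0.01 to 0.40, adjusted p = 0.128). Those intervals hold the sizes called for Per2, so the missed threshold does not set Per3 apart from it. After a second quantile normalization the first value was 0.23 and passed (adjusted p = 0.0437).

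Cry2 encodes one of the 2 cryptochromes, the strongest repressors of CLOCK and BMAL1. Its probe set (10485170, gene at chr2:92403646-92434085) read 9.05 and 9.01 in control, 9.16 and 9.15 in HO1 knockout, 9.99 and 10.03 in HO2 knockdown, and 9.89 and 9.75 in combined. No group overlapped another, and the gap between the hairpin arrays and the scrambled arrays was wider than the spread within any group. With HO2 shRNA Cry2 rose by 0.98 in HO1+/+ cells (SE 0.069, 95% interval 0.84 to 1.13, limma adjusted p = 2.16e-08) and by 0.66 in HO1-/- cells (SE 0.069, 95% interval 0.51 to 0.81, adjusted p = 2.57e-06), to 1.58 times the signal in HO1 knockout. Both rises, and the rise of 0.79 in combined against control (adjusted p = 2.04e-07), were kept under every alternative run. Genotype alone gave 0.13 (SE 0.069, adjusted p = 0.285). Under the hairpin Cry2 fell by 0.19 in HO1-/- against HO1+/+ cells (SE 0.069, adjusted p = 0.0421). But this call was lost after a second quantile normalization (-0.08, adjusted p = 0.403), without the variance trend (adjusted p = 0.0612) and with a replicate block (adjusted p = 0.0503). It was also lost without any 1 of 5 arrays. The adjusted p was 0.0537 without HO1 knockout replicate 1 and also without replicate 2, 0.124 and 0.167 without HO2 knockdown replicate 1 and 2, and 0.337 without combined replicate 2, where the difference was -0.12.

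The other cryptochrome gene, Cry1, passed the test nowhere. It read 8.22 and 8.37 in control, 8.32 and 8.38 in HO1 knockout, 8.40 and 8.27 in HO2 knockdown, and 8.34 and 8.25 in combined (probe set 10371400, gene at chr10:85131700-85185054). Every group overlapped every other, and the 4 means spanned 0.06, less than the largest SD of 0.11. With HO2 shRNA the differences were 0.04 in HO1+/+ cells (95% interval -0.15 to 0.23, limma adjusted p = 0.756) and -0.05 in HO1-/- cells (-0.25 to 0.14, adjusted p = 0.765). Neither interval reaches the changes of Cry2.

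Ciart gave different answers on its 2 probe sets. The brighter one (10373452) read 7.57 and 7.45 in control, 7.40 and 7.55 in HO1 knockout, 7.87 and 8.07 in HO2 knockdown, and 7.42 and 7.54 in combined, so that only HO2 knockdown stood apart. On it Ciart rose by 0.46 with HO2 shRNA in HO1+/+ cells (SE 0.10, limma adjusted p = 0.00255), showed 0.0025 in HO1-/- cells (95% interval -0.22 to 0.22, adjusted p = 0.992), and fell by 0.49 in combined against HO2 knockdown (SE 0.10, adjusted p = 0.00186). The dimmer one (10500272) read 7.40 and 7.36, 7.29 and 7.49, 7.38 and 7.48, and 7.57 and 7.31 in the same order of groups, with all groups overlapping. Its difference was 0.05 in HO2 knockdown against control (SE 0.11, adjusted p = 0.752) and 0.0098 in combined against HO2 knockdown (adjusted p = 0.953). Ciart lies at chr3:95878500-95882257. The 20 nearest-numbered probe sets with a named gene around the dimmer probe set all carry genes of chromosome 3, whereas around the brighter one 19 of 20 carry genes of chromosome 10 and 0 of chromosome 3. For each of the other 7 genes at least 19 of the 20 lie on the gene's own chromosome. Which transcript the brighter Ciart probe set reads was not tested, and the calls for Ciart rest on it. With the mean of both probe sets the values were 0.26 (adjusted p = 0.061) and -0.24 (adjusted p = 0.0748), and without HO2 knockdown replicate 2 the rise was 0.36 (adjusted p = 0.0547).

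The casein kinase genes moved in opposite directions with the hairpin in HO1+/+ cells, by small amounts. Csnk1d (probe set 10394040, gene at chr11:120957709-120991350) read 11.56 and 11.64 in control, 11.53 and 11.50 in HO1 knockout, 11.75 and 11.75 in HO2 knockdown, and 11.51 and 11.42 in combined. HO2 knockdown held its highest arrays and combined its lowest mean. It rose by 0.15 in HO2 knockdown against control (SE 0.049, limma adjusted p = 0.0272), and fell by 0.29 in combined against HO2 knockdown (SE 0.049, adjusted p = 0.000333). The rise was lost without the variance trend (adjusted p = 0.112), with array weights (adjusted p = 0.0557) and after a second quantile normalization (0.10, adjusted p = 0.127). It was also lost without control replicate 1, HO2 knockdown replicate 1 or HO2 knockdown replicate 2, with adjusted p of 0.204, 0.104 and 0.0975, while the fall was kept under every alternative run. In combined against control it fell by 0.14 (SE 0.049, adjusted p = 0.0442), a call lost under 11 of 20 alternatives. Without control replicate 2 and without combined replicate 2 the adjusted p was 0.272 and 0.348, and the difference -0.10 in both. Without HO1 knockout replicate 2, HO2 knockdown replicate 1 or HO2 knockdown replicate 2 the adjusted p was 0.05002, 0.0578 and 0.0577.

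Csnk1e was lowest with both perturbations. Its signal was 11.55 and 11.50 in control, 11.39 and 11.44 in HO1 knockout, 11.39 and 11.32 in HO2 knockdown, and 11.10 and 11.14 in combined (probe set 10430519, gene at chr15:79417852-79455579). Both combined arrays lay below all 6 others and both control arrays above all 6 others. Csnk1e fell by 0.40 in combined against control (SE 0.050, limma adjusted p = 9.63e-06), by 0.29 with HO2 shRNA in HO1-/- cells (SE 0.050, adjusted p = 0.000358) and by 0.24 with HO1-/- under HO2 shRNA (SE 0.050, adjusted p = 0.00192). These 3 falls were kept under every alternative run. With HO2 shRNA in HO1+/+ cells it fell by 0.17 (SE 0.050, adjusted p = 0.016), and that call was lost after centring (-0.12, adjusted p = 0.122) and without the variance trend (adjusted p = 0.0774). Without control replicate 1 and without HO2 knockdown replicate 2 its adjusted p was 0.0963 and 0.134. With genotype alone the difference was -0.11 (95% interval -0.22 to -0.01, adjusted p = 0.176).

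Set in order of group means, the 8 genes fell into a few patterns. Cry2 and Per1 ran from control through HO1 knockout and combined to HO2 knockdown, and for Cry2 every step between neighbours (0.13, 0.66 and 0.19) exceeded the largest group SD of 0.10. Per3 had control and HO1 knockout exchanged, and there only the step of 0.13 between control and combined exceeded the largest SD, 0.084. For Per2 the step of 0.22 from control to HO1 knockout exceeded the largest SD of 0.13, and the steps among the other groups (0.01 and 0.05) did not. By limma the steps from control to HO1 knockout did not pass for Cry2 or Per2 (adjusted p = 0.285 and 0.0939). Nor did the step from control to combined for Per3 (adjusted p = 0.366). On the brighter Ciart probe set only the step of 0.46 up to HO2 knockdown exceeded the largest SD of 0.14. Csnk1d ran from combined through HO1 knockout and control to HO2 knockdown, and its lowest step, 0.05 between combined and HO1 knockout, was under the largest SD of 0.061. Csnk1e ran from combined through HO2 knockdown and HO1 knockout to control, with HO2 knockdown and HO1 knockout 0.06 apart beside a largest SD of 0.052.

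Whether the change with HO2 shRNA depended on the HO1 genotype was asked by the interaction, which was called for 1 of the 8 genes, 0 higher and 1 lower, with 4.67% of all genes higher and 7.57% lower. After centring, the share of higher calls moved from 38.2% to 27.1%. The log2 change of Hmox2 with the hairpin was -3.14 in HO1+/+ and -2.30 in HO1-/- cells, so the depth of knockdown differed between the genotypes too. The part of that depth in the interaction values was not tested. Cry2 rose less in HO1-/- than in HO1+/+ cells, by -0.32 (SE 0.098, limma adjusted p = 0.0433). That call was lost after a second quantile normalization (-0.23, adjusted p = 0.133), without the variance trend (adjusted p = 0.0771) and with array weights (adjusted p = 0.0503). It was also lost with a replicate block (adjusted p = 0.0509) and without any 1 of 5 arrays. The adjusted p was 0.114 and 0.0898 without HO1 knockout replicate 1 and 2, 0.105 and 0.122 without HO2 knockdown replicate 1 and 2, and 0.195 without combined replicate 2, where the value was -0.25. Ciart on its brighter probe set (-0.46, SE 0.15, adjusted p = 0.0528) and Csnk1d (-0.20, SE 0.070, adjusted p = 0.0706) missed the threshold narrowly. On the dimmer Ciart probe set, whose neighbours by number lie on the chromosome of Ciart, the interaction was -0.0048 (SE 0.16, adjusted p = 0.987). The brighter one passed after centring (-0.50, adjusted p = 0.034), after a second quantile normalization (-0.57, adjusted p = 0.013), with the robust fit (adjusted p = 0.0487), with dim genes left out (adjusted p = 0.0376) and without control replicate 1 (-0.52, adjusted p = 0.0352), and Csnk1d passed after centring (-0.25, adjusted p = 0.0467) and without control replicate 2 (-0.25, adjusted p = 0.0315). For Per1, Per2, Per3, Cry1 and Csnk1e the interaction was -0.19, -0.17, 0.05, -0.09 and -0.12, none of which passed.

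Related genes were also compared within arrays, where any scaling of a whole array cancels. The log2 difference of Cry2 from Cry1 was 0.83 larger in the 4 arrays with HO2 shRNA than in the 4 without it. It ran from 1.49 to 1.76 with the hairpin and from 0.64 to 0.84 without, so the ranges did not overlap. The exact two-sided permutation test over the 8 arrays gave p = 0.0286, the smallest the 70 splits allow, and 0.0952 after Benjamini-Hochberg adjustment over the 10 differences tested. The difference of Csnk1d from Csnk1e was 0.28 larger with HO2 shRNA (0.28 to 0.43 against 0.01 to 0.14, exact permutation p = 0.0286, adjusted 0.0952). By genotype the Cry difference was -0.04 (exact permutation p = 0.8) and the casein kinase difference -0.01 (p = 0.886). Within the Period family, Per2 gained on Per3 by 0.19 with HO1-/- (exact permutation p = 0.0286, adjusted 0.0952) and differed from it by -0.03 with the hairpin (p = 0.743). Per1 against Per2 and Per1 against Per3 gave 0.16 and 0.13 with the hairpin (exact permutation p = 0.114 and 0.0857) and -0.17 and 0.02 with genotype (p = 0.0857 and 0.771). No difference passed after adjustment, which this number of arrays limits.

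**Figure D4:**
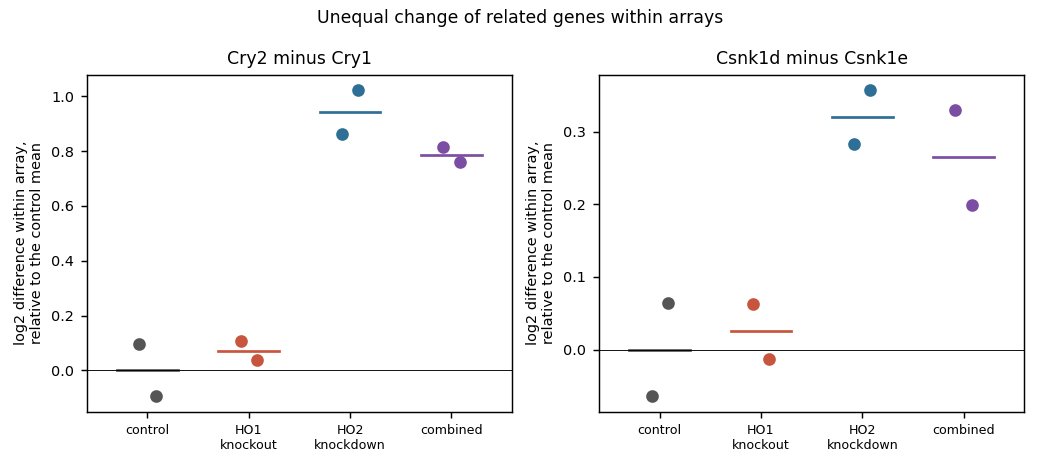
Within-array log2 differences between related genes (y axis, relative to the control mean) in the 4 groups; points are arrays. Cry2 minus Cry1 sits between 0.76 and 1.02 in the 4 arrays with HO2 shRNA and between -0.10 and 0.11 in the other 4.

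The rest of the pathway is given by lists, each with its members called in the 2 hairpin comparisons. These counts stand beside 16.5% of all genes higher and 16.7% lower with HO2 shRNA in HO1+/+ cells, and 10.2% higher and 12.8% lower in HO1-/- cells. Of 15 other core clock genes, 8 rose and 1 fell with HO2 shRNA in HO1+/+ cells (median 0.19), and 5 rose and 1 fell in HO1-/- cells (median 0.14). Nr1d1, the gene of REV-ERB alpha, a repressor that binds heme, rose by 1.33 and 0.74. The output factor genes Dbp and Tef rose by 0.67 and 0.59 in HO1+/+ cells and by 0.62 and 0.61 in HO1-/- cells. Timeless fell by 0.59 in HO1+/+ cells, beside the lower cell division genes, whose part in it was not tested. Bhlhe40, the gene for a repressor that competes at E-boxes, fell by 0.45 in HO1-/- cells. Against HO2 knockdown, combined arrays had 1 of the 15 higher and 4 lower, near the 13% and 21% of all genes, among them Bhlhe40 at -0.95, Nr1d1 at -0.62 and Clock at -0.37. With genotype alone, Nfil3 rose by 0.25 and Bhlhe40 fell by 0.36.

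Genes that turn over PER and CRY proteins changed in both directions. In HO1+/+ cells 6 of 16 rose and 4 fell with HO2 shRNA (median 0.03), and in HO1-/- cells 2 rose and 5 fell (median 0.02). Dtl, an adaptor of the CUL4 ubiquitin ligase that also acts in DNA replication, fell by 1.28 and 0.94 in the 2 genotypes, beside the lower cell division genes. Rbx1, a ring subunit of cullin ligases, fell by 0.34 and 0.30. Btrc, whose product beta-TrCP recognises phosphorylated PER, rose by 0.46 and 0.29. Prkaa2, a catalytic subunit of the AMP-activated kinase that marks cryptochromes for degradation, rose by 0.68 in HO1+/+ cells and was -0.86 lower in combined than in HO2 knockdown. Under the hairpin, HO1-/- cells had 1 of the 16 higher, the deubiquitinase gene Usp2 at 0.50, and 8 lower, beside 13% and 21% of all genes. Usp2 was also 0.58 higher with genotype alone.

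Among 14 other kinases and phosphatases that act on PER and CRY, 4 rose and 0 fell with the hairpin in HO1+/+ cells (median 0.02). They were Dyrk1a (0.42), Ppp1cc (0.41), a catalytic subunit of protein phosphatase 1, Gsk3a (0.34) and Csnk1g3 (0.20). In HO1-/- cells 3 rose and 2 fell (median 0.06), with Dyrk1a at 0.33 and the casein kinase 2 subunit genes Csnk2a1 and Csnk2a2 at -0.22 and -0.16. Of 16 partners found in the PER complex, 2 rose and 4 fell in HO1+/+ cells (median -0.04) and 2 rose and 6 fell in HO1-/- cells (median -0.11). The counts in HO1+/+ cells are near the shares over all genes, 16.5% higher and 16.7% lower. Nono, an RNA-binding partner of PER, rose by 0.43 in HO1+/+ cells, and the deacetylase gene Hdac3 fell by 0.32 and 0.48. Combined against HO2 knockdown had 0 of the 16 higher and 9 lower, with Nono at -0.51, where 13% of all genes were higher and 21% lower.

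Glucocorticoid-induced genes bear on the dexamethasone pulse and on Per1. With the hairpin 11 of 16 rose and 0 fell in HO1+/+ cells (median 0.53), and 9 rose and 2 fell in HO1-/- cells (median 0.45). Tat rose by 2.37 and 1.84, Pck1 by 2.28 and 1.87, Igfbp1 by 1.62 and 1.43, and Tsc22d3, which encodes GILZ, by 0.84 and 0.66. Tat is also on the hepatocyte marker list, and the summed hepatocyte markers were higher in the same arrays, whose part was not tested. Of 17 CREB-induced genes, 5 were higher and 2 lower in HO1+/+ cells (median 0.02) and 3 were higher and 3 lower in HO1-/- cells (median -0.04). Apart from the 5 higher, these counts are near the shares over all genes. Ppargc1a, a coactivator gene, rose by 0.67 and 0.59.

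**Figure D5:**
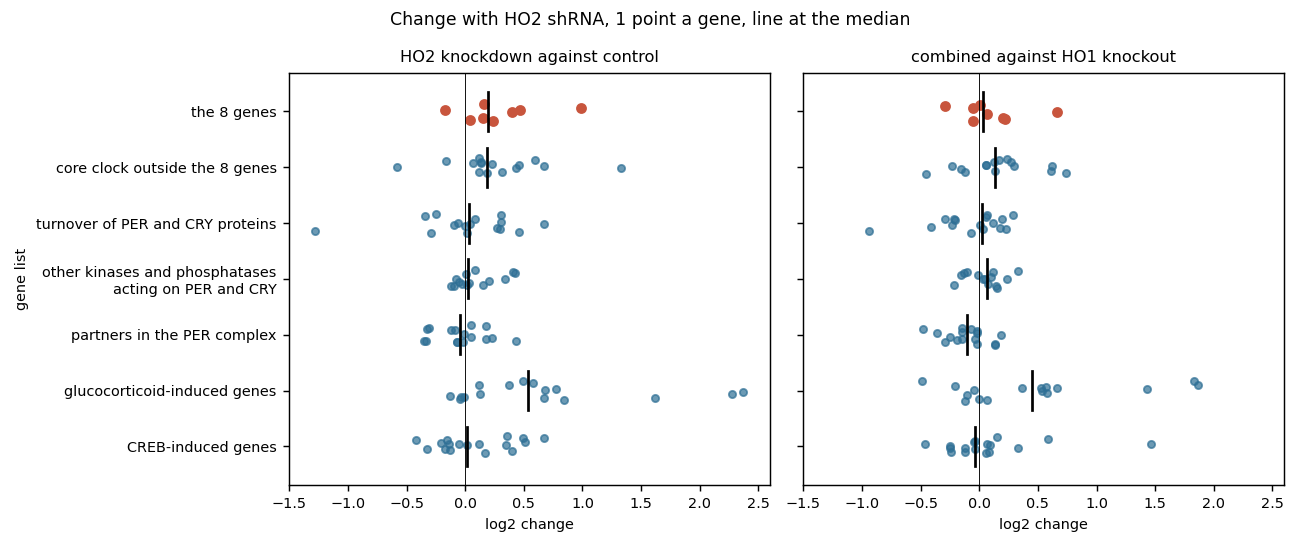
Log2 change (x axis) with HO2 shRNA in HO1+/+ and in HO1-/- cells for the 8 genes and for each pathway list; points are genes and lines are medians. The glucocorticoid-induced genes have the medians farthest from 0, at 0.53 and 0.45.

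Cry2 was the only one of the 8 genes whose group means spanned at least 0.5 and did so by 0.98, so likeness was described for it alone. Cry2 was compared over the 8 arrays with 3595 genes whose group means also spanned at least 0.5, with predicted genes and small RNAs left out. Among these, Pearson's r with Cry2 was highest for Tenm3 (0.9965), Anks4b (0.9963), Slc1a4 (0.9961), Cxxc5 (0.996) and Ndrg1 (0.9946). It was above 0.95 for 315 of them. Among the 8 genes, Per1 followed Cry2 most closely (r = 0.98), Per3 less so (0.84), and Cry1 did not (0.02), while Csnk1e ran against Cry2 (-0.70). These are descriptions across 8 arrays that share 4 groups, so that r mostly reflects the order of the group means.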

How the data were processed

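The authors deposited 1 log2 intensity per probe set and array, computed by RMA (robust multi-array average). The submitters' processing notes name affy and R 2.15.0. The chip definition file is not given in the sources used here. RNA of 300 ng went on each array, per the labels' protocols. Of 34760 probe sets, 21640 with exactly 1 gene symbol were used, while 1321 with several and 11799 with none were left out. The brightest per gene left 19937 genes. Array medians ran from 7.61 to 7.70, and replicates correlated across genes with r of at least 0.997.

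The log2 values were fitted with limma 3.58.1 (R 4.3.3) as 4 group means over 8 arrays, with a variance trend, 4 residual and 11.2 prior degrees of freedom, two-sided tests and Benjamini-Hochberg adjustment over all genes. The fit was tested on simulated data. Only 2 arrays a group limit the precision. Related genes were compared by exact permutation. Motif letters were counted in RefSeq promoter windows (GRCm38.p6).

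The 8 genes and the gene lists were chosen with earlier results of these data known. From each list the called genes with the largest changes, up to 4 a comparison, could be named, and the text gives some. Listed genes without a matching symbol were not analysed here. Alternatives changed the normalization, the variance model, the threshold, the choice of probe set, array weights, the treatment of dim genes, a replicate block and leaving out each array. Replicate numbers did not pair the arrays: deviations of same-numbered arrays correlated from -0.26 to 0.12 between groups.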

Additional observations from a re-analysis of the deposited data

Results flagged for a closer look

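By the limma interaction at an adjusted p under 0.05, the change with HO2 shRNA differed between HO1 genotypes for the genes named in this paragraph. They are Cry2, Hmox1, Hmox2 and some genes of the pathway lists, not every pathway gene named in the text. A negative value means that the log2 change with the hairpin was lower in HO1-/- than in HO1+/+ cells, whatever the sign of each. Cry2 had -0.32. In the core clock the values were -0.59 for Nr1d1, -0.59 for Bhlhe40, which stood at 0.13 in HO1+/+ and -0.45 in HO1-/- cells, and -0.31 for Clock. Genes acting on PER and CRY proteins gave -0.56 for Prkaa2, -0.26 for Gsk3a, -0.25 for Ppp1cc and -0.47 for Nono. Among glucocorticoid-induced genes Tat had -0.54, Dusp1 -0.53, Lcn2 -0.36 and Zbtb16 -0.30. Among CREB-induced genes Crtc2 had -0.47, Egr1 -0.44 and Rgs2 1.07. Hmox1 had 0.34 and Hmox2 0.84, the latter a smaller fall with the hairpin in HO1-/- cells.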

How the results depend on the processing

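Of 952 recomputed changes of the 8 genes, 881 kept their side of the threshold, 60 lost the call, 10 gained one and 1 reversed. Of 563 changes without a call in either fit, all counted among the 881, 24 changed sign. The reversal was Ciart in combined against HO2 knockdown, at 0.0098 on its dimmer probe set, an alternative chosen after the data were seen. At an adjusted p under 0.01 the calls numbered 3 of 8 in HO2 knockdown against control, 3 in combined against control and 0 in the interaction. The shares of all genes at that threshold are not given here, so these counts are not read as particular to the 8 genes. Leaving out 1 array gave 3 to 6 calls in HO2 knockdown against control, 3 to 5 in combined against control and 0 to 2 in the interaction. HO1 knockout against control gained 1 call after a second quantile normalization, where calls over all genes went from 2557 to 2692. The single interaction call became 0 without the variance trend and with array weights, 2 with the robust fit, 3 after centring the arrays and 2 among genes above the 25th percentile of mean signal. Over all genes the interaction calls numbered 2442 in the main fit and 1359, 2479, 2483, 2499 and 2680 in those settings, in that order. With the replicate block the interaction had 0 calls among the 8 genes, beside 2327 over all genes. Cry2 then missed the threshold in the interaction (limma adjusted p = 0.0509) and in combined against HO2 knockdown (adjusted p = 0.0503). The causes were not tested. Where leaving out an array left 1 in a group, that array was assumed to vary like the others. The 10 differences between related genes had no adjusted p under 0.05 in the main setting, and with a smallest p of 0.0286 the alternatives say nothing of their stability. Array signal of dim probe sets carries background, so their log2 changes understate larger differences.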

Other observations

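Markers of the other cell types of liver gave these summed linear signals beside the 8 genes. Over 12 stellate cell and fibroblast markers the sum ran from 11140 to 11170 in control, 8338 to 8542 in HO1 knockout, 11480 to 11800 in HO2 knockdown and 10520 to 10880 in combined, and 8 of the 12 fell with genotype alone. Over 11 sinusoidal endothelial markers it ran from 2152 to 2156 in control, 4756 to 4774 in HO1 knockout, 2660 to 2750 in HO2 knockdown and 4980 to 5273 in combined. The sums of 6 cholangiocyte markers lay between 10320 and 12450 over all 8 arrays. Those of 10 neutrophil markers lay between 750.2 and 930.6, and those of 11 markers of T, B and NK cells between 1008 and 1243. The endothelial sum was higher in both HO1-/- groups. In HO1 knockout against control 4 of the 11 markers rose and 0 fell, where 5.62% of all genes were higher and 7.2% lower. Their changes ran from -0.16 to 3.18 with a median of 0.15, so the sum does not stand for each marker. In combined against HO2 knockdown 7 rose and 1 fell (median 0.41), beside 13% and 21% of all genes. With the scrambled hairpin the neutrophil and lymphocyte sums overlapped between genotypes, whereas with HO2 shRNA they did not: the neutrophil sum ran from 750.2 to 762.6 in HO2 knockdown and 886.2 to 895.5 in combined, and the lymphocyte sum from 1008 to 1039 and 1131 to 1149. Of these markers, 1 of the 10 for neutrophils and 1 of the 11 for lymphocytes rose in combined against HO2 knockdown, and 0 fell. Over all genes 13% were higher and 21% lower there, so the rises are near the share. The part of these lists in the differences of the 8 genes was not tested.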
